A study of Mus musculus with 18 samples.

Results

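The 43 genes described here encode the contractile apparatus, the calcium release machinery and the energy enzymes of skeletal muscle, read in whole mammary glands of mice. They were chosen by symbol from known muscle biology, as probe sets annotated to exactly 1 of the listed symbols, and 42 of the 43 were measured, with 70 probe sets among the 18193 genes and 34945 probe sets that carry 1 symbol. Xirp2 had no such probe set and is named only. By role the measured genes are 9 of the thick filament, 9 of the thin filament, 10 of the Z-disc and cytoskeleton, 8 of calcium handling and 6 of energy metabolism. Of the 42, 14 are typical of fast fibres and 8 of slow fibres.

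The glands came from virgin female mice at 5, 6 and 7 weeks of age, either RonTK-/-, in which the tyrosine kinase domain of the receptor Ron (gene Mst1r) is deleted, or wild type RonTK+/+. There were 3 Affymetrix whole-genome mouse arrays for each genotype and age, 18 in all and 9 for each genotype. The labels give no background strain, do not name the gland taken, and do not say whether arrays of 1 group come from separate mice. Each p-value thus sets a difference against the spread between arrays, and that spread may be technical. RNA was taken from the whole gland after a spin to remove fat, and whole glands hold every cell type that was cut out with them. In such bulk RNA, fewer muscle cells and less muscle RNA per cell cannot be told apart.

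Skeletal muscle contracts when myosin of the thick filament pulls on actin of the thin filament, and calcium permits this by binding troponin C of the troponin complex on that filament. Fast and slow fibres build the same machine from different genes: Myh4, Myh1 and Myh2 encode fast myosin heavy chains and Myh7 the slow one, and troponin T, I and C each have a fast and a slow skeletal isoform. The mammary epithelium itself makes no sarcomeres, whereas striated muscle of the skin and body wall lies close to the gland.

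Each value is a log2 ratio, from linear ratios that the authors deposited, with 0 meaning a ratio of 1. For 87.37% of all probe sets the median of the 9 RonTK+/+ arrays is 1, within 1e-04, so a value states the distance from the RonTK+/+ median of that same gene and not an absolute level. The table's lowest ratio is 0.01, a log2 ratio of -6.64, and values there are bounds, as are gene means that hold a probe set there. Values of a group are given in the order of its arrays 1, 2 and 3. The median ratio was 1 on every array. No 2 arrays shared more than 0.0554% of their probe set values, within 1e-09. Mst1r itself, the targeted gene, has 1 probe set, with log2 ratios of -0.20, -0.43 and 0.22 in RonTK-/- glands and -0.04, -0.22 and 0.08 in RonTK+/+ glands at 5 weeks, 0.65, 0.49 and 0.40 in RonTK-/- and 0.22, 0.00 and 0.17 in RonTK+/+ glands at 6 weeks, and 0.29, 1.07 and 0.38 in RonTK-/- and -0.31, -0.22 and 0.49 in RonTK+/+ glands at 7 weeks. Its difference over the 3 ages, RonTK-/- minus RonTK+/+, was 0.30 ± 0.13 (SE, limma, adjusted p = 1). Where that probe set lies relative to the deleted exons is not known here, so it does not check the genotype labels. Mst1, the gene of the Ron ligand, had a difference of -0.11 ± 0.05 over the 3 ages (SE, limma, adjusted p = 1).

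The skeletal muscle genes divided the 18 arrays. On 8 arrays between 36 and 39 of the 42 genes had a log2 ratio under -1, and on the other 10 arrays 0 of the 42 did. Among RonTK-/- glands the low arrays were array 3 at 5 weeks and all 3 at 6 weeks, and among RonTK+/+ glands they were array 2 of every age, with array 3 of the 6-week group. The mean over the 42 genes was 0.70, 0.82 and -4.36 in RonTK-/- glands and 0.00, -4.55 and 0.44 in RonTK+/+ glands at 5 weeks, -3.12, -4.57 and -4.42 in RonTK-/- and 0.96, -4.43 and -3.41 in RonTK+/+ glands at 6 weeks, and 0.78, 0.12 and 0.12 in RonTK-/- and 0.81, -4.54 and 0.33 in RonTK+/+ glands at 7 weeks. No array had a mean between -3.12 and 0.00. All RonTK-/- arrays at 6 weeks were low, no RonTK-/- array at 7 weeks was low, and each of the other 4 groups held both kinds. In 35 of the 42 genes the largest gap between neighbouring values separated exactly these 8 arrays from the other 10, by between 0.69 and 4.55 on the log2 scale. The other 7 genes, whose largest gap lay elsewhere, were Acta1, Myh1, Sln and the slow isoforms Myh7, Tnnt1, Tnni1 and Tnnc1.

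**Figure D1:**
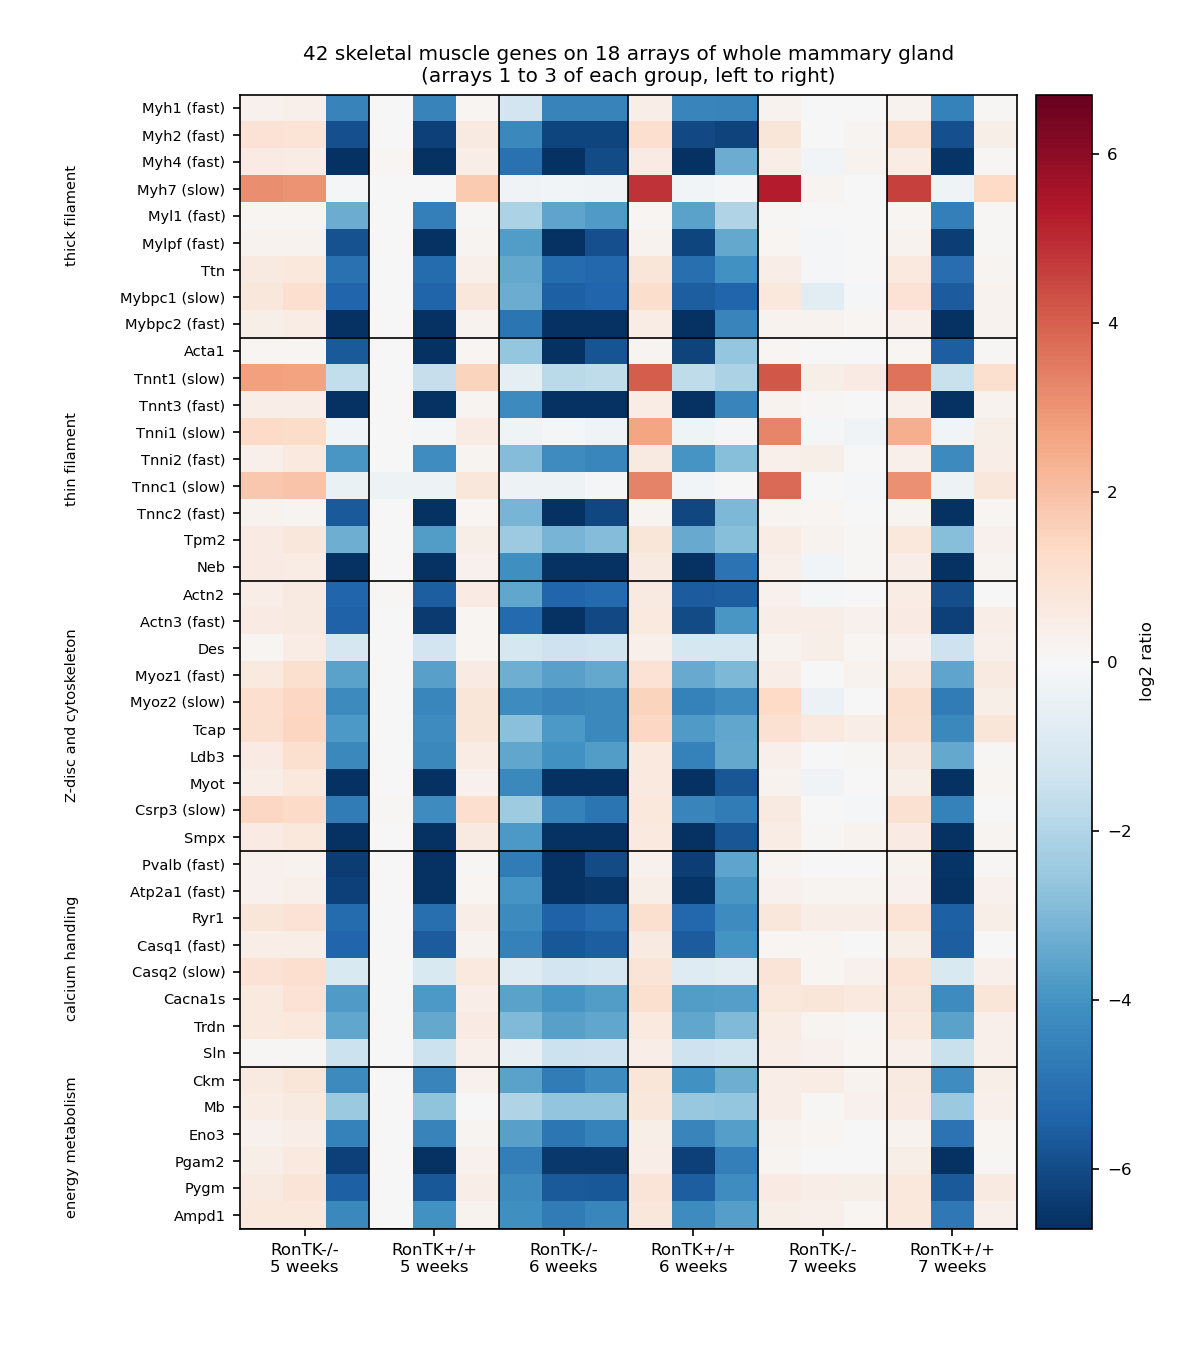
Log2 ratio of each of the 42 measured skeletal muscle genes (down the page, by role, with fast and slow fibre genes marked) on each of the 18 arrays (across, 3 per group), in red above and in blue below 0. The 8 low arrays appear as blue columns, with array means between -4.57 and -3.12, and Myh7, Tnnt1, Tnni1 and Tnnc1 stand out as red cells on some of the other 10.

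Among thin filament genes, Acta1, skeletal muscle alpha-actin, had log2 ratios of 0.14, 0.12 and -5.62 in RonTK-/- glands and 0.00, -6.64 and 0.11 in RonTK+/+ glands at 5 weeks, -2.57, -6.64 and -5.80 in RonTK-/- and 0.17, -6.22 and -2.60 in RonTK+/+ glands at 6 weeks, and 0.12, 0.04 and 0.01 in RonTK-/- and 0.11, -5.54 and 0.09 in RonTK+/+ glands at 7 weeks. It lay between 0.00 and 0.17 on all 10 arrays outside the low ones. RonTK-/- array 1 and RonTK+/+ array 3 at 6 weeks, with -2.57 and -2.60, stood between these and the other low arrays. The 2 values of -6.64 are bounds.

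Tnnc2, the fast skeletal calcium sensor of the troponin complex, had log2 ratios of 0.25, 0.18 and -5.65 in RonTK-/- glands and 0.00, -6.64 and 0.11 in RonTK+/+ glands at 5 weeks, -3.12, -6.64 and -6.12 in RonTK-/- and 0.19, -6.08 and -2.99 in RonTK+/+ glands at 6 weeks, and 0.17, 0.12 and 0.05 in RonTK-/- and 0.18, -6.61 and 0.12 in RonTK+/+ glands at 7 weeks. Tnni2, the fast inhibitory subunit, had 0.33, 0.65 and -3.91 in RonTK-/- glands and 0.00, -4.18 and 0.20 in RonTK+/+ glands at 5 weeks, -2.92, -4.23 and -4.35 in RonTK-/- and 0.62, -3.97 and -2.83 in RonTK+/+ glands at 6 weeks, and 0.33, 0.37 and 0.05 in RonTK-/- and 0.32, -4.28 and 0.43 in RonTK+/+ glands at 7 weeks. For both genes the order of the arrays resembled that of Acta1, with the same 2 arrays at 6 weeks the least low of the 8. Tnnt3, the fast tropomyosin-binding subunit, was at the lowest ratio on 6 arrays, at -4.28 on RonTK-/- array 1 and at -4.43 on RonTK+/+ array 3 at 6 weeks, and between -0.01 and 0.50 on the others. Neb, nebulin, which runs along the thin filament, ranged from -6.64 to 0.60. Tpm2, beta-tropomyosin, ranged from -3.72 to 0.81, the mean of 4 probe sets.

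Among thick filament genes, Myh4, the heavy chain of the fastest mouse fibres, had log2 ratios of 0.54, 0.51 and -6.64 in RonTK-/- glands and 0.14, -6.64 and 0.42 in RonTK+/+ glands at 5 weeks, -5.0, -6.64 and -5.99 in RonTK-/- and 0.53, -6.64 and -3.32 in RonTK+/+ glands at 6 weeks, and 0.44, -0.18 and 0.22 in RonTK-/- and 0.48, -6.56 and 0.08 in RonTK+/+ glands at 7 weeks. Myh2, the heavy chain of fast oxidative fibres, had 0.97, 0.94 and -5.91 in RonTK-/- glands and 0.00, -6.25 and 0.61 in RonTK+/+ glands at 5 weeks, -4.31, -6.14 and -6.13 in RonTK-/- and 1.13, -6.02 and -6.21 in RonTK+/+ glands at 6 weeks, and 0.79, 0.04 and 0.16 in RonTK-/- and 1.04, -5.90 and 0.38 in RonTK+/+ glands at 7 weeks. Myh2 ranged over 7.38 on the log2 scale, equal to 167-fold between the highest and the lowest array. The gap between the low arrays and the others was 3.13 for Myh4 and 4.31 for Myh2. Myh1, the third fast heavy chain of limb muscle, ranged from -4.54 to 0.47 as the mean of 3 probe sets, 1 of which was flat. Mylpf and Myl1, fast myosin light chains, ranged from -6.64 to 0.26 and from -4.57 to 0.14. Mybpc2, the fast myosin-binding protein C, ranged from -6.64 to 0.48. Ttn, titin, the elastic filament that spans from Z-disc to the centre of the sarcomere, ranged from -5.25 to 0.81 over 6 probe sets.

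In the Z-disc, which anchors thin filaments, Smpx, a small protein of striated muscle, had log2 ratios of 0.57, 0.73 and -6.64 in RonTK-/- glands and 0.00, -6.64 and 0.62 in RonTK+/+ glands at 5 weeks, -3.85, -6.64 and -6.64 in RonTK-/- and 0.64, -6.64 and -5.75 in RonTK+/+ glands at 6 weeks, and 0.48, 0.08 and 0.23 in RonTK-/- and 0.55, -6.64 and 0.20 in RonTK+/+ glands at 7 weeks. Myot, myotilin, which binds alpha-actinin, had 0.46, 0.71 and -6.64 in RonTK-/- glands and 0.00, -6.64 and 0.30 in RonTK+/+ glands at 5 weeks, -4.32, -6.64 and -6.64 in RonTK-/- and 0.65, -6.64 and -5.73 in RonTK+/+ glands at 6 weeks, and 0.25, -0.23 and 0.01 in RonTK-/- and 0.39, -6.64 and 0.13 in RonTK+/+ glands at 7 weeks. Smpx and Myot were both at the lowest ratio on the same 6 arrays and higher on RonTK-/- array 1 than on RonTK+/+ array 3 at 6 weeks. Actn3, the alpha-actinin of fast fibres, ranged from -6.64 to 0.64, and Actn2, the alpha-actinin of all fibres, from -5.94 to 0.61. Myoz1, Ldb3 and Tcap, further Z-disc proteins, ranged from -3.66 to 1.05, from -4.55 to 1.05 and from -4.34 to 1.45.

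Des, desmin, the intermediate filament of muscle cells, also of smooth muscle, had the smallest range of the 42 genes, 1.91. Its log2 ratios were 0.11, 0.52 and -1.11 in RonTK-/- glands and 0.03, -1.27 and 0.13 in RonTK+/+ glands at 5 weeks, -1.20, -1.39 and -1.32 in RonTK-/- and 0.34, -1.20 and -1.16 in RonTK+/+ glands at 6 weeks, and 0.26, 0.38 and 0.14 in RonTK-/- and 0.29, -1.37 and 0.33 in RonTK+/+ glands at 7 weeks. The direction by array was that of the sarcomere genes at a smaller size. One of its 2 probe sets was nearly flat, from -0.32 to 0.49, and the other ranged from -2.58 to 0.59, so the mean understates the second. The same held for Mb, myoglobin, the oxygen store of oxidative fibres, whose probe sets ranged from -0.26 to 0.12 and from -5.42 to 1.38, and for Sln, sarcolipin, an inhibitor of the calcium pump, with ranges from -0.15 to 0.21 and from -2.97 to 0.87. As means of 2 probe sets, Mb had log2 ratios of 0.50, 0.59 and -2.51 in RonTK-/- glands and 0.04, -2.72 and 0.04 in RonTK+/+ glands at 5 weeks, -1.99, -2.64 and -2.65 in RonTK-/- and 0.75, -2.55 and -2.57 in RonTK+/+ glands at 6 weeks, and 0.46, 0.09 and 0.27 in RonTK-/- and 0.54, -2.48 and 0.35 in RonTK+/+ glands at 7 weeks. Sln had 0.06, 0.10 and -1.44 in RonTK-/- glands and 0.01, -1.46 and 0.32 in RonTK+/+ glands at 5 weeks, -0.57, -1.44 and -1.39 in RonTK-/- and 0.45, -1.39 and -1.32 in RonTK+/+ glands at 6 weeks, and 0.42, 0.31 and 0.13 in RonTK-/- and 0.36, -1.47 and 0.33 in RonTK+/+ glands at 7 weeks. Of the 70 probe sets 4 were flat, with a range under 1, and belonged to Des, Mb, Myh1 and Sln. For Myh1, the other 2 probe sets were at the lowest ratio on 7 arrays.

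Calcium handling genes followed the same arrays. Atp2a1, the calcium pump of fast fibres, ranged from -6.64 to 0.38, Pvalb, the calcium buffer parvalbumin, from -6.64 to 0.30, and Casq1, the fast form of the calcium store protein calsequestrin, from -5.70 to 0.61. Ryr1, the calcium release channel, Cacna1s, the voltage sensor that opens it, and Trdn, triadin, which ties calsequestrin to the channel, ranged from -5.45 to 1.09, from -4.19 to 1.07 and from -3.64 to 0.71. Casq2, the calsequestrin form of slow fibres and heart, had log2 ratios of 0.99, 1.13 and -1.01 in RonTK-/- glands and 0.00, -1.01 and 0.63 in RonTK+/+ glands at 5 weeks, -0.86, -1.26 and -1.13 in RonTK-/- and 0.84, -0.86 and -0.69 in RonTK+/+ glands at 6 weeks, and 0.87, 0.15 and 0.29 in RonTK-/- and 0.91, -1.01 and 0.36 in RonTK+/+ glands at 7 weeks. Its span of 2.39 was the third smallest after Des and Sln, and its largest gap, 0.69, still lay between the 8 low arrays and the other 10.

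Energy metabolism genes were as sharply divided. Ckm, muscle creatine kinase, which regenerates ATP during contraction, had log2 ratios of 0.61, 0.82 and -4.27 in RonTK-/- glands and 0.00, -4.41 and 0.30 in RonTK+/+ glands at 5 weeks, -3.57, -4.68 and -4.22 in RonTK-/- and 0.83, -4.04 and -3.29 in RonTK+/+ glands at 6 weeks, and 0.47, 0.51 and 0.22 in RonTK-/- and 0.59, -4.15 and 0.37 in RonTK+/+ glands at 7 weeks. Pgam2, the muscle form of the glycolytic enzyme phosphoglycerate mutase, had 0.37, 0.64 and -6.24 in RonTK-/- glands and 0.00, -6.64 and 0.27 in RonTK+/+ glands at 5 weeks, -4.63, -6.44 and -6.44 in RonTK-/- and 0.46, -6.26 and -4.59 in RonTK+/+ glands at 6 weeks, and 0.19, 0.00 and -0.04 in RonTK-/- and 0.38, -6.64 and 0.08 in RonTK+/+ glands at 7 weeks. Pygm, muscle glycogen phosphorylase, ranged from -5.70 to 0.88, Eno3, muscle enolase, from -4.94 to 0.43, and Ampd1, muscle AMP deaminase, from -4.81 to 0.77. The largest gap in Pgam2, from -4.59 to -0.04, was the largest of the 42 genes at 4.55.

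Over all 18193 genes the muscle genes were among the most variable. The range over the 18 arrays had a median of 6.23 for the 42 genes and of 0.54 for all genes, and the individual ranges ran from 1.91 to 7.38. Of the 50 genes with the largest range, 25 were from this list, 59.5% of its measured genes, where the 50 are 0.275% of all genes. Of the 100 largest, 32 were, 76.2% of its genes against 0.55% of all. The count of 25 dropped to 5 after quantile normalization and to 9 with log2(ratio + 0.1), which shrinks differences between low values. The genes were named for their tissue and were known to move when listed, so these shares describe them and test nothing.

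Ratios at the table's lowest value were mostly muscle values. Of 103 values at 0.01 in the whole table, 81 (78.6%) belonged to 21 probe sets of 16 of the 42 genes. They lay on 6 of the 8 low arrays, with 10 to 18 muscle probe sets each, plus 2 on RonTK+/+ array 3 at 6 weeks and 0 on RonTK-/- array 1 at 6 weeks. Of the 14 fast fibre genes 10 had such a probe set, and of the 8 slow fibre genes 0 did. The other 22 values came from 5 probe sets, of Apobec2, Ckmt2 and Myom2, which are also muscle genes, and of Glycam1, a mucin-like protein of high endothelial venules and milk. The Glycam1 values lay on RonTK-/- arrays 1, 2 and 3 at 7 weeks, on RonTK+/+ array 1 at 6 weeks and on RonTK+/+ array 3 at 7 weeks, none of which was low in muscle genes. At ratios of 0.02 or less the muscle genes held 157 of 218 values, and at 0.05 or less 303 of 596. A fold change against such a value is a bound set by the table, so ranges that include -6.64 are at least as large as printed.

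Outside the 8 low arrays, 4 of the slow fibre genes varied far more than the fast ones. The mean of the 14 fast genes was 0.42, 0.47 and -5.43 in RonTK-/- glands and 0.01, -5.83 and 0.23 in RonTK+/+ glands at 5 weeks, -3.81, -5.78 and -5.54 in RonTK-/- and 0.52, -5.57 and -3.74 in RonTK+/+ glands at 6 weeks, and 0.30, 0.10 and 0.10 in RonTK-/- and 0.39, -5.76 and 0.23 in RonTK+/+ glands at 7 weeks. On the 10 arrays outside the low ones it thus lay between 0.01 and 0.52. The mean of the 8 slow genes was 1.66, 1.73 and -2.21 in RonTK-/- glands and -0.04, -2.12 and 0.99 in RonTK+/+ glands at 5 weeks, -1.53, -2.26 and -2.24 in RonTK-/- and 2.38, -2.21 and -2.17 in RonTK+/+ glands at 6 weeks, and 2.50, -0.06 and 0.05 in RonTK-/- and 2.20, -2.25 and 0.57 in RonTK+/+ glands at 7 weeks. On those same 10 arrays it lay between -0.06 and 2.50. Those with a slow mean of 1.66 or more had fast means between 0.30 and 0.52. The rest of the 10 had slow means of 0.99 or less and fast means between 0.01 and 0.23. Slow minus fast ran from -0.16 on RonTK-/- array 2 at 7 weeks to at least 3.72 on RonTK+/+ array 2 at 5 weeks. The fast genes were at -5.83 there, a mean that holds values at the lowest ratio and so is a bound. These are differences of ratios, each set against its own RonTK+/+ median, and not ratios of levels. The RonTK+/+ array at 0 was itself low for Myh7 (array 2 at 5 weeks) and for Tnnc1 (array 3 at 6 weeks). For the fast genes Tnnt3 and Tnnc2 it was array 1 at 5 weeks, which was not low. A value near 0 on the low arrays thus does not show that Myh7 or Tnnc1 transcripts were kept there.

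**Figure D2:**
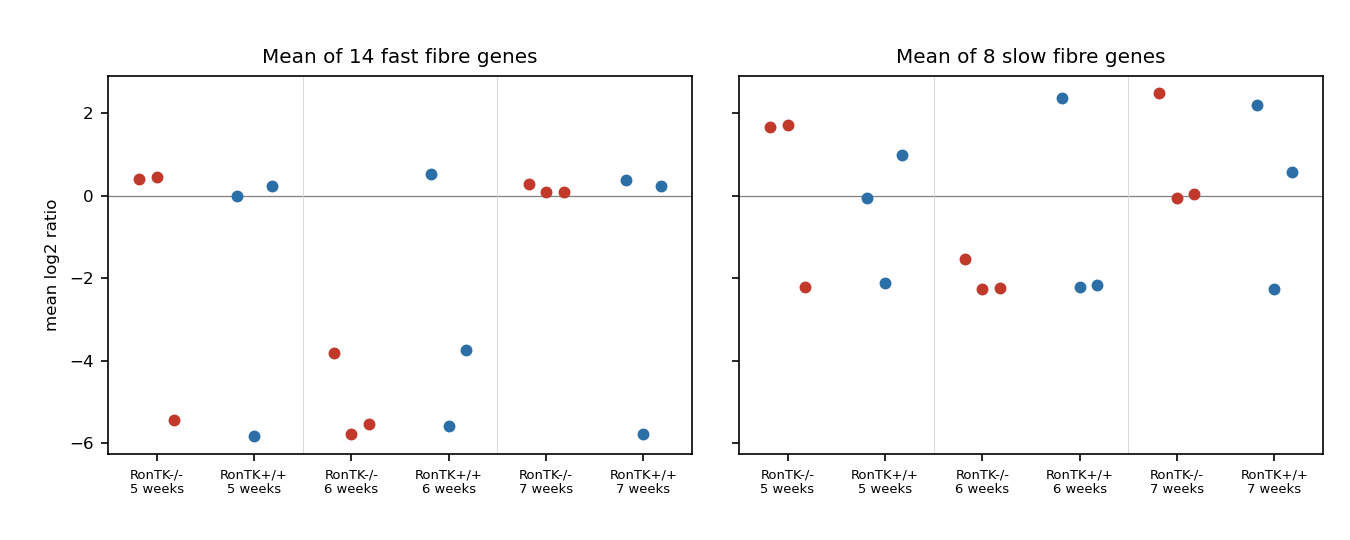
Mean log2 ratio of the 14 fast (left) and 8 slow (right) fibre genes on each array, 1 point per array, RonTK-/- in red and RonTK+/+ in blue, grouped by genotype and age. Fast means fall either between 0.01 and 0.52 or between -5.83 and -3.74, while slow means above -1 spread from -0.06 to 2.50.

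Myh7, the slow myosin heavy chain, had log2 ratios of 3.10, 3.03 and -0.11 in RonTK-/- glands and -0.04, 0.00 and 1.75 in RonTK+/+ glands at 5 weeks, -0.23, -0.16 and -0.21 in RonTK-/- and 4.86, -0.17 and -0.14 in RonTK+/+ glands at 6 weeks, and 5.28, 0.20 and 0.00 in RonTK-/- and 4.56, -0.29 and 1.34 in RonTK+/+ glands at 7 weeks. It was highest, between 4.56 and 5.28, on array 1 of the RonTK-/- glands at 7 weeks and array 1 of the RonTK+/+ glands at both 6 and 7 weeks, next on RonTK-/- arrays 1 and 2 at 5 weeks, then on RonTK+/+ array 3 at 5 and at 7 weeks. On RonTK-/- arrays 2 and 3 at 7 weeks and RonTK+/+ array 1 at 5 weeks it was near 0, as on the 8 low arrays, although the fast genes were near 0 there too and not low. The low arrays could not be told from these 3 by Myh7.

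Tnni1, the slow troponin I, had log2 ratios of 1.29, 1.25 and -0.16 in RonTK-/- glands and 0.00, -0.08 and 0.57 in RonTK+/+ glands at 5 weeks, -0.31, -0.15 and -0.25 in RonTK-/- and 2.63, -0.30 and -0.15 in RonTK+/+ glands at 6 weeks, and 3.29, -0.14 and -0.22 in RonTK-/- and 2.43, -0.16 and 0.39 in RonTK+/+ glands at 7 weeks. Tnnc1, the troponin C of slow fibres and heart, had 1.83, 1.90 and -0.46 in RonTK-/- glands and -0.32, -0.33 and 0.75 in RonTK+/+ glands at 5 weeks, -0.33, -0.34 and -0.09 in RonTK-/- and 3.33, -0.16 and 0.00 in RonTK+/+ glands at 6 weeks, and 3.77, 0.03 and -0.14 in RonTK-/- and 3.08, -0.33 and 0.77 in RonTK+/+ glands at 7 weeks. Tnnt1, the slow troponin T, had 2.77, 2.68 and -1.65 in RonTK-/- glands and 0.00, -1.53 and 1.48 in RonTK+/+ glands at 5 weeks, -0.68, -1.79 and -1.68 in RonTK-/- and 4.06, -1.68 and -2.13 in RonTK+/+ glands at 6 weeks, and 4.17, 0.39 and 0.57 in RonTK-/- and 3.63, -1.48 and 1.05 in RonTK+/+ glands at 7 weeks. All 3 were highest on the same 3 arrays as Myh7. Tnni1 and Tnnc1 were never under -1, whereas Tnnt1 was under -1 on 7 of the 8 low arrays. On the 10 arrays that were not low, Myh7 spanned 5.32, Tnnt1 4.17, Tnnc1 4.09 and Tnni1 3.51, and each of the other 38 genes spanned 1.93 or less, with Acta1 at 0.17.

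The other 4 genes listed as slow took the course of the fast ones. Mybpc1, the slow myosin-binding protein C, ranged from -5.55 to 1.19, Myoz2, a Z-disc protein of slow fibres and heart, from -4.68 to 1.47, and Csrp3, muscle LIM protein, from -4.91 to 1.40, each with its largest gap between the 8 low arrays and the rest. Casq2, described above, did the same with a smaller gap. By slow and fast pair, Tnnc1 minus Tnnc2 ran from -0.32 to at least 6.32 and Myh7 minus Myh4 from -0.22 to at least 6.64. Tnnc2 and Myh4 were at the lowest ratio at those upper ends. Mybpc1 minus Mybpc2 stayed between -0.98 and 1.60 and Myoz2 minus Myoz1 between -1.21 and 0.87. Mybpc2 was at the lowest ratio on 5 arrays, so its differences there are bounds too. All 8 slow genes exceeded 1 on at least 1 array, against 2 of the 14 fast genes, Myh2 and Myoz1.

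**Figure D3:**
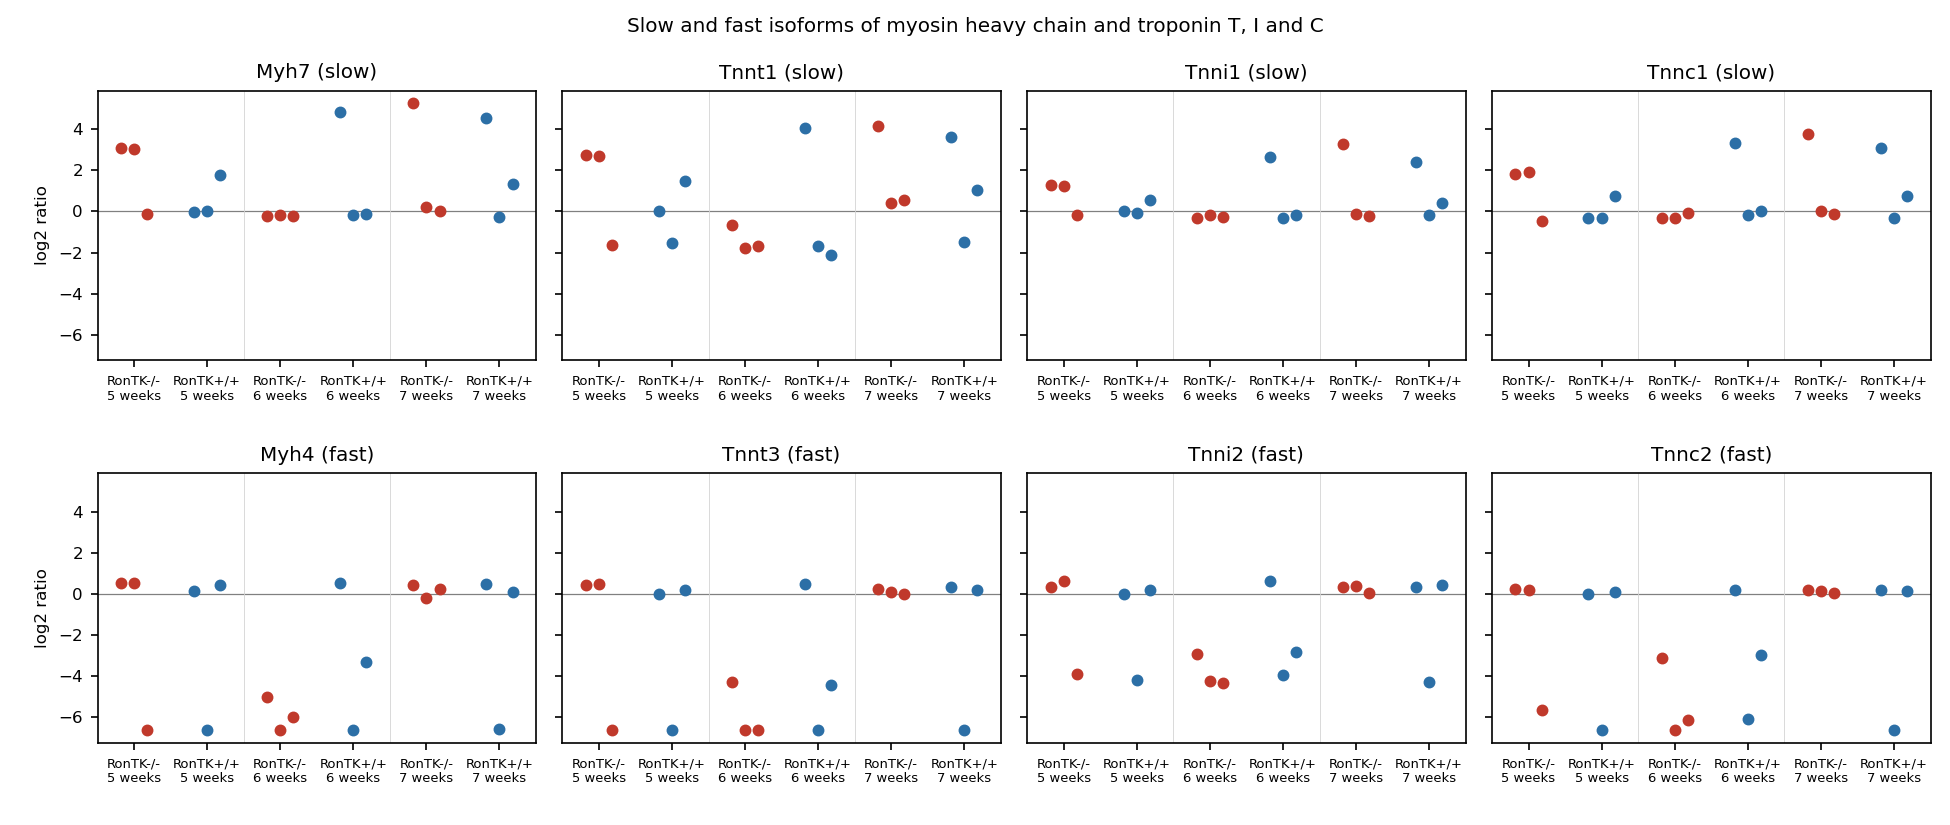
Log2 ratio of 4 slow fibre genes (top) and their fast counterparts (bottom) on each array, RonTK-/- in red and RonTK+/+ in blue, arrays 1 to 3 left to right within a group. The slow genes lie above 2 on some arrays, on which the fast genes stay between 0.17 and 0.65. The fast genes are low on arrays where Myh7, Tnni1 and Tnnc1 stay near 0. For Myh7 and Tnnc1 that 0 is the value of a low RonTK+/+ array, so it does not show that they were kept there.

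Of the 6 measured slow muscle genes outside the list, Myl2, Myl3 and Tpm3 were highest on the same array as Myh7. Myl2, the slow and ventricular regulatory light chain, had log2 ratios of 5.27, 5.15 and 0.12 in RonTK-/- glands and -0.13, 0.00 and 3.06 in RonTK+/+ glands at 5 weeks, -0.11, -0.03 and -0.31 in RonTK-/- and 6.53, -0.08 and -0.12 in RonTK+/+ glands at 6 weeks, and 6.94, 0.05 and 0.22 in RonTK-/- and 6.19, -0.18 and 3.22 in RonTK+/+ glands at 7 weeks. Myl3, the slow and ventricular essential light chain, ranged from -0.51 to 2.72 and Tpm3, the slow alpha-tropomyosin, from -0.28 to 1.38. Tnnt2, cardiac troponin T, ranged only from -0.35 to 0.61. The cardiac genes Myh6, Myl7 and Tnni3 ranged from -0.21 to 0.28, from -0.56 to 0.17 and from -0.28 to 0.38. Of the 11 heart genes only Actc1, cardiac actin, which is also made in developing and regenerating skeletal muscle, ranged widely, from -2.45 to 2.25.

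RonTK-/- array 1 and RonTK+/+ array 3, both at 6 weeks, were the least low of the 8 arrays, with means of -3.12 and -3.41. They differed from each other gene by gene. Myh1 was at -1.26 on the RonTK-/- array and at -4.47 or less on the RonTK+/+ array, where 2 of its 3 probe sets were at the lowest ratio. Myh2 was at -4.31 and -6.21 on the same 2 arrays, in that order. Myh4 was the reverse, at -5.0 on the RonTK-/- array and -3.32 on the RonTK+/+ array. Actn3, at -5.20 and -3.88, and Pvalb, at -4.70 and -3.51, were likewise lower on the RonTK-/- array. Csrp3, Actn2, Mybpc1 and Smpx were higher on it by 2.32, 2.01, 2.01 and 1.91. In all, 19 genes were higher on the RonTK-/- array and 23 lower, with a median difference of -0.03. Acta1, Eno3, Ldb3, Myoz2 and Trdn differed by 0.03 or less. These are 2 single arrays, with no replicate of either pattern and no test. Myh2, Myh1 and Myh4 lie next to each other on chromosome 11, with 0 coding genes between neighbours. On these 2 arrays Myh2 and Myh1 were both higher on the RonTK-/- array, and Myh4 was lower on it.

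**Figure D4:**
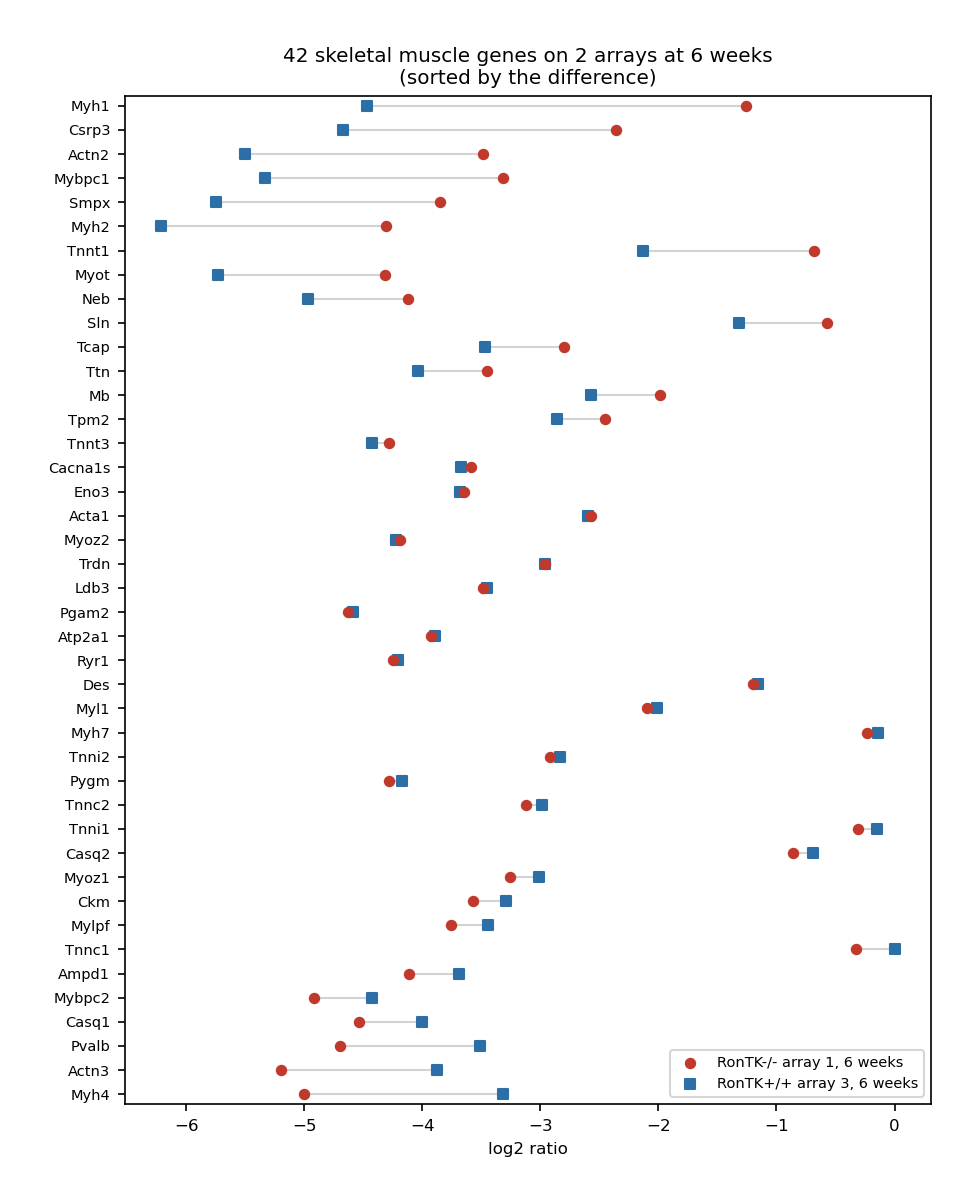
Log2 ratio of the 42 skeletal muscle genes on RonTK-/- array 1 (red circles) and RonTK+/+ array 3 (blue squares) at 6 weeks, sorted by the difference. Myh1 is at the top, at least 3.20 higher on the RonTK-/- array, and Myh4 at the bottom, with a difference of -1.69.

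The bases just before the gene start are shown for some of these genes. They are a fast and slow myosin pair, its fast neighbour on chromosome 11, a fast and slow troponin C pair, and Ckm. Each window is the 200 bases before the start, 5′ to 3′ on the gene's strand, from RefSeq (GRCm38.p6), and capitals mark matches to CANNTG (the E-box of myogenic regulators such as Myod1) or to the MEF2 motif. The windows are at chr11:67237612-67237811 (plus strand) for Myh4, chr11:67199902-67200101 (plus) for Myh1, chr14:54994627-54994826 (minus) for Myh7, chr2:164779735-164779934 (minus) for Tnnc2, chr14:31208112-31208311 (plus) for Tnnc1 and chr7:19410894-19411093 (plus) for Ckm.
Myh4: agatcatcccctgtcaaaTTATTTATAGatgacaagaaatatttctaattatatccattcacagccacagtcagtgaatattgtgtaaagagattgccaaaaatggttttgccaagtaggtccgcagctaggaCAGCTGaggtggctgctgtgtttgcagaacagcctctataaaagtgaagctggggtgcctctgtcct
Myh1: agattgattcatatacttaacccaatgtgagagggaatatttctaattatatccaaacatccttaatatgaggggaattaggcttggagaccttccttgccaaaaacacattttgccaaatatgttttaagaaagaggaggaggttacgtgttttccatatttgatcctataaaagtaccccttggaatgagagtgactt
Myh7: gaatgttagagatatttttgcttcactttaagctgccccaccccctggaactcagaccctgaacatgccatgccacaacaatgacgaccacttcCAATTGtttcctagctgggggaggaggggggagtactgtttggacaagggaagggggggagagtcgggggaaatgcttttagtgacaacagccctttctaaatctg
Tnnc2: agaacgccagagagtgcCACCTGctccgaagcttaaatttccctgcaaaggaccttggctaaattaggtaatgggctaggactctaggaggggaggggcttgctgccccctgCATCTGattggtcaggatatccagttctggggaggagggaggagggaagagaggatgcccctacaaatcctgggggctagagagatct
Tnnc1: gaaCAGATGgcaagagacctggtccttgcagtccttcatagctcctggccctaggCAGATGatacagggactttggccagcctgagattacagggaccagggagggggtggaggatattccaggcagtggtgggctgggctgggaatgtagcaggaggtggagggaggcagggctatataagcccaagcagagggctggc
Ckm: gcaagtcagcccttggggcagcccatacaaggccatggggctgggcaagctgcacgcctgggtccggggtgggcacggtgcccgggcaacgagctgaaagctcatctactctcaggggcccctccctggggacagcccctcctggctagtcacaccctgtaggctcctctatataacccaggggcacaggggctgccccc

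The Myh4 window held 1 CANNTG, of the form CAGCTG, and 1 MEF2 match, the Myh7 window 1 CANNTG, and the Tnnc2 and Tnnc1 windows 2 each. No match was found in the Myh1 and Ckm windows, which says only that those letters are not in these 200 bases. RefSeq windows matched 32 of the 42 measured genes. The 10 others are Actn3, Ampd1, Myot, Myoz1, Neb, Sln, Tcap, Tnni2, Tnnt3 and Trdn. On both strands, CANNTG was present in 22 of the 32 (68.8%) and in 57.9% of all 27025 promoters, CAGCTG, one of its forms, in 34.4% and 10.6%, and the MEF2 motif in 18.8% and 2.35%. Among the 10 fast genes with a window 6 held CANNTG and 4 held CAGCTG, and among the 8 slow genes 8 and 3 did. A match describes letters and is no evidence of binding.

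The genotype comparison asks whether loss of the Ron kinase domain goes with a different level of these transcripts. None of the 42 genes was called (limma, adjusted p under 0.05 over all 18193 genes) in any of the 9 comparisons. The share of all genes called was 0.0605% for genotype over the 3 ages, and, by age, 0.011% (5 weeks), 0.0165% (6 weeks) and 0.033% (7 weeks). It was 0% for 6 minus 5 weeks and 0% for 7 minus 6 weeks in RonTK-/- glands, 0% for 6 minus 5 weeks and 0.011% for 7 minus 6 weeks in RonTK+/+ glands, and 0% for the interaction of genotype and age. At an unadjusted p under 0.05, 0 of the 42 passed in the 4 genotype comparisons, in both RonTK+/+ age comparisons and in the interaction, where 3.77%, 3.42%, 6.15%, 9.75%, 4.17%, 9.15% and 6.82% of all genes did, in that order of comparisons.

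Over the 3 ages the genotypes overlapped fully. The median difference of the 42 genes, RonTK-/- minus RonTK+/+, was 0.03 on the log2 scale, with 28 above and 14 below 0 and a range from -0.14 to 0.36. The smallest p belonged to Myh1, with a mean of -1.54 ± 2.26 in RonTK-/- and -1.90 ± 2.46 in RonTK+/+ glands (SD, n = 9 each) and an adjusted p of 1 (limma). Myl1, Actn2 and Tcap came next, with differences of 0.22 ± 0.85, 0.31 ± 1.25 and 0.19 ± 1.05 (SE), which did not pass. Each was smaller than its own SE.

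At 5 weeks 41 of 42 genes were above 0, with a median difference of 0.38. Myh7 averaged 2.01 ± 1.83 in RonTK-/- glands and 0.57 ± 1.02 in RonTK+/+ glands (SD, n = 3 each). Tnnc1, Casq2 and Tnnt1, with Myh7 the 4 smallest p-values, had differences of 1.06 ± 1.16, 0.49 ± 0.63 and 1.28 ± 1.75 (SE), none past the threshold. At 6 weeks all 42 were below 0, with a median difference of -1.79. Actn3 averaged -5.96 ± 0.72 in RonTK-/- glands and -3.07 ± 3.38 in RonTK+/+ glands (SD, n = 3 each). Casq2, Ckm and Ampd1 had differences of -0.85 ± 0.63, -1.99 ± 1.68 and -2.02 ± 1.73 (SE), which did not pass. In 2 of the 42 genes the RonTK-/- arrays lay wholly below the RonTK+/+ arrays, as in 8.77% of all genes. RonTK+/+ array 1 was the one RonTK+/+ array at 6 weeks that was not low.

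At 7 weeks 41 of 42 genes were above 0, with a median difference of 1.55. Tnnc2 averaged 0.12 ± 0.06 in RonTK-/- glands and -2.10 ± 3.91 in RonTK+/+ glands (SD, n = 3 each). Myl1, Cacna1s and Eno3 had differences of 1.49 ± 1.47, 1.59 ± 1.65 and 1.63 ± 1.72 (SE), none past the threshold. The difference rested on 1 low array, RonTK+/+ array 2. Without it the median was -0.17, and Myl1, Tnnc2, Cacna1s and Eno3 were at -0.07, -0.03, -0.07 and -0.08. At 5 weeks, where each genotype had 1 low array, leaving out 1 array moved the median between -1.33 and 2.32. For the interaction the smallest adjusted p was 0.734, for Casq2 and Actn3 (limma).

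The age comparisons follow the glands from 5 to 7 weeks. In RonTK-/- glands, 6 minus 5 weeks was below 0 in all 42 genes, with a median of -3.26. Only Casq2 had an unadjusted p under 0.05, with a difference of -1.45 ± 0.63 (SE, limma, adjusted p = 0.528), against 8.76% of all genes. Des, Actn3 and Ampd1 had differences of -1.14 ± 0.54, -4.54 ± 2.25 and -3.41 ± 1.73 (SE). In 2 genes the arrays at 6 weeks lay wholly below those at 5 weeks, as in 9.01% of all genes. RonTK-/- array 3 at 5 weeks was low. When limma weighted each array by its fit, 38 of the 42 were called, where 17.4% of all genes were. With that array at 5 weeks left out, 36 had an unadjusted p under 0.05. The share of all genes at that p was not taken for this fit, so the 36 cannot be set against it. None of the 42 was called in it, and 0 of all genes were.

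From 6 to 7 weeks in RonTK-/- glands the groups did not overlap. In 40 of the 42 genes all 3 arrays at 7 weeks were above all 3 at 6 weeks, as in 21.6% of all genes, and all 42 differences were above 0, with a median of 4.65. Des averaged 0.26 ± 0.12 at 7 weeks and -1.30 ± 0.09 at 6 weeks, and Actn3 0.39 ± 0.08 at 7 weeks and -5.96 ± 0.72 at 6 weeks (SD, n = 3 each). With the spread taken from all 18 arrays none passed: the smallest adjusted p were 0.16 for Des (1.56 ± 0.54, SE) and 0.162 for Actn3 (6.34 ± 2.25), then Cacna1s at 4.49 ± 1.65 and Ckm at 4.55 ± 1.68 (limma). At an unadjusted p under 0.05 there were 35 of 42, all higher, against 13.4% of all genes higher.

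The call depended on which arrays set the spread. With these 6 arrays alone, 38 of the 42 genes were higher at 7 weeks (limma, adjusted p from 1.92e-06 to 0.03), where 8.88% of all genes were higher. With 1 of the 6 arrays left out, in a repeat chosen after the data were seen, 37 or 38 were. In those fits between 904 and 1420 of all 18193 genes were higher. All 14 fast genes and 4 of the 8 slow genes, Casq2, Mybpc1, Myoz2 and Csrp3, were among the 38. Cacna1s had the smallest adjusted p, with a difference of 4.49 ± 0.11 (SE), and Mybpc2 had 6.26 ± 0.44. The 4 not called were Tnnt1 (3.09 ± 0.98, adjusted p = 0.0781), Myh7 (2.03 ± 1.32, 0.353), Tnnc1 (1.47 ± 0.97, 0.36) and Tnni1 (1.21 ± 0.88, 0.408). Array weights on all 18 arrays also gave 38, where 20.4% of all genes were called. The 12 arrays left out of the fit of 6 arrays alone come from groups in which low and other arrays mix. That fit thus omits the spread within those groups, and its calls follow the division into low and other arrays. They are no separate test of age, and the same limit holds for the further gene lists counted in that fit below.

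**Figure D5:**
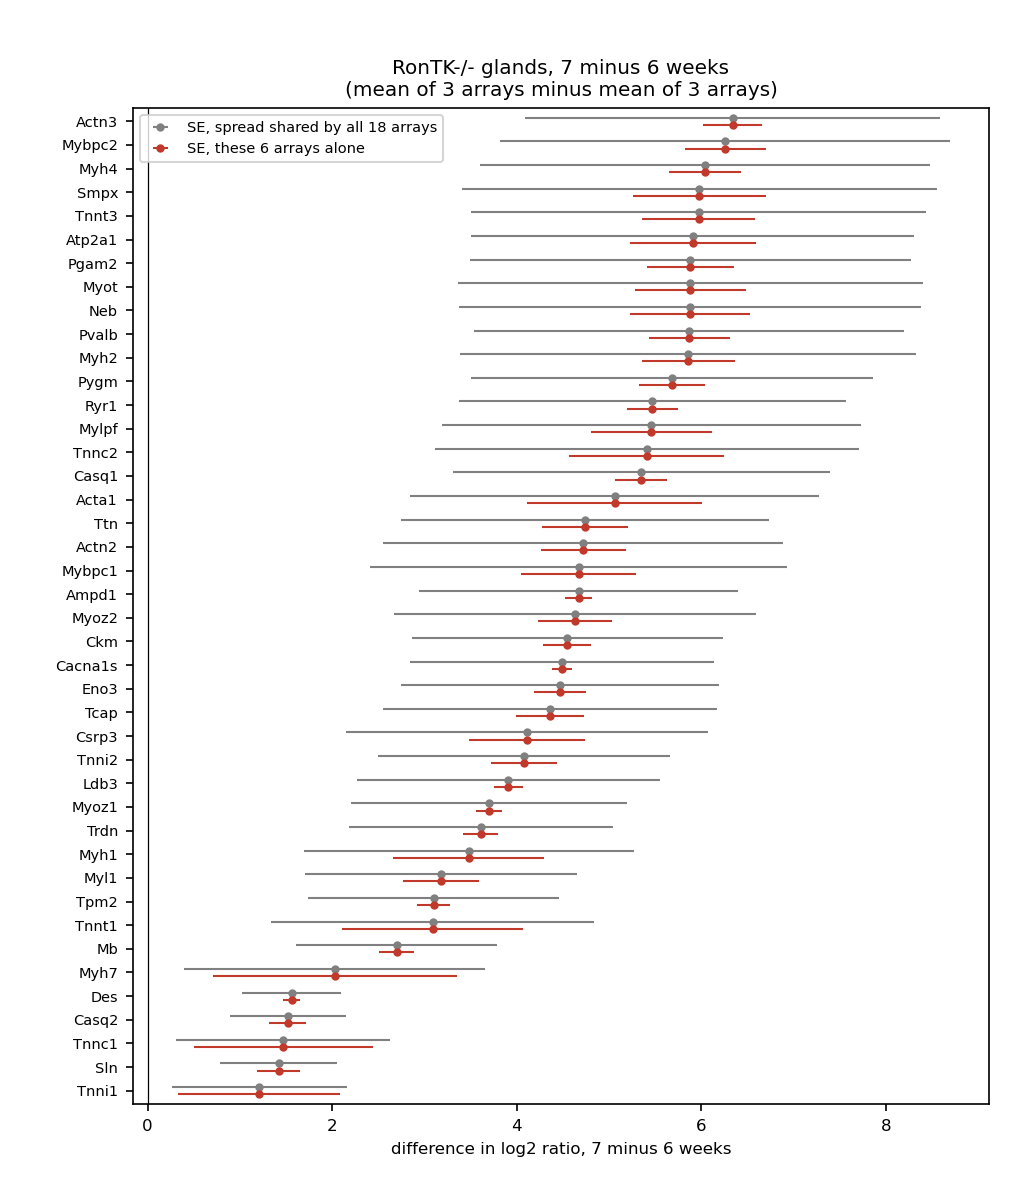
Difference in log2 ratio between RonTK-/- glands at 7 weeks and at 6 weeks (mean of 3 arrays minus mean of 3 arrays) for the 42 skeletal muscle genes, with the SE from the spread of all 18 arrays (grey) and from these 6 arrays alone (red). Differences run from 1.21 for Tnni1 to 6.34 for Actn3, and the grey SE is the wider for every gene, 2.25 against 0.32 for Actn3.

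In RonTK+/+ glands, 6 minus 5 weeks was below 0 in 38 of 42 genes with a median of -1.04. Csrp3, Tnnc1, Actn2 and Myh1 had the smallest p, with differences of -1.80 ± 1.96, 1.02 ± 1.16, -1.86 ± 2.17 and -1.34 ± 1.79 (SE). In those glands, 7 minus 6 weeks was above 0 in all 42, with a median of 1.16, and Ldb3, Myh2, Tpm2 and Mb had 1.53 ± 1.64, 2.21 ± 2.47, 1.18 ± 1.36 and 0.92 ± 1.09 (SE). None of these passed, and each was smaller than its SE. With array weights 0 were called, and 19 (6 minus 5 weeks) and 20 (7 minus 6 weeks) of the 42 had an unadjusted p under 0.05, as had 9.34% and 29.3% of all genes. The medians of the 42 were then -2.82 and 3.01. The comparisons that share the arrays at 6 weeks also share their low arrays.

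Muscle genes outside the list had their lowest values on the same arrays. Among 24 measured further sarcomere genes, Mylk4, Klhl41, Lmod2 and Lmod3 had the largest ranges, 7.26, 7.13, 6.39 and 6.34, and the list mean was 0.58, 0.80 and -3.03 in RonTK-/- glands and 0.01, -3.18 and 0.53 in RonTK+/+ glands at 5 weeks, -2.41, -3.06 and -3.11 in RonTK-/- and 0.76, -3.02 and -2.80 in RonTK+/+ glands at 6 weeks, and 0.61, 0.30 and 0.28 in RonTK-/- and 0.73, -3.02 and 0.38 in RonTK+/+ glands at 7 weeks. Among 16 further genes of excitation and calcium release, Srl, Cav3, Hrc and Stac3 had ranges of 5.71, 4.91, 4.83 and 3.74. Among 21 further genes of muscle metabolism, Ckmt2, the mitochondrial creatine kinase of muscle, had the largest range, 7.71, then Trim63, Rpl3l and Cox6a2 with 6.69, 5.60 and 5.46. Of 11 myogenic regulators, the transcription factor Myf6, which marks mature fibres, ranged from -4.59 to 1.26, Vgll2 from -3.22 to 1.30, Myog from -1.78 to 1.18 and Mef2c from -1.18 to 0.98. None of these genes was called in the 18-array fits. In the 6 arrays of RonTK-/- glands alone, 23 of 24 sarcomere, 14 of 16 coupling, 17 of 21 metabolism and 7 of 11 regulator genes were higher at 7 than at 6 weeks, where 8.88% of all genes were.

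Lymphocyte genes moved with the muscle genes, the other way on most arrays. The mean of 11 B lymphocyte genes was -0.33, -2.00 and 0.30 in RonTK-/- glands and 0.09, 0.82 and -2.08 in RonTK+/+ glands at 5 weeks, 0.18, 0.49 and 0.34 in RonTK-/- and -2.09, 0.60 and 0.05 in RonTK+/+ glands at 6 weeks, and -2.11, -2.00 and -2.05 in RonTK-/- and -2.07, 0.13 and -2.10 in RonTK+/+ glands at 7 weeks. The mean of 10 T lymphocyte genes was -0.47, -2.84 and 0.63 in RonTK-/- glands and 0.25, 0.97 and -2.79 in RonTK+/+ glands at 5 weeks, 0.45, 0.52 and 0.63 in RonTK-/- and -2.61, 0.69 and 0.04 in RonTK+/+ glands at 6 weeks, and -2.74, -2.66 and -2.66 in RonTK-/- and -2.74, 0.10 and -2.73 in RonTK+/+ glands at 7 weeks. On the 8 low arrays both means were above 0, and on 8 of the other 10 both lay between -2.84 and -2.00, but RonTK-/- array 1 and RonTK+/+ array 1 at 5 weeks, which were not low in muscle genes, had -0.33 and 0.09 for B and -0.47 and 0.25 for T. Pou2af1, Ms4a1, Cd79b and Cr2 of B cells had ranges of 5.79, 5.45, 4.76 and 4.18, and Cd3g, Cd3d, Cd5 and Cd8b1 of T cells 5.98, 5.36, 5.22 and 5.14. In the 6 RonTK-/- arrays alone, 10 of 11 B and 10 of 10 T genes were lower at 7 than at 6 weeks, where 7.66% of all genes were. Their part in the muscle result was not tested.

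Lists of other tissues had smaller ranges of their means. The mean of 9 brown adipocyte genes was 0.54, 0.25 and 0.20 in RonTK-/- glands and 0.04, -1.55 and 0.48 in RonTK+/+ glands at 5 weeks, 0.12, -0.95 and -1.54 in RonTK-/- and 0.48, -0.80 and -0.10 in RonTK+/+ glands at 6 weeks, and 0.31, 0.42 and 0.40 in RonTK-/- and 0.03, -1.59 and 0.75 in RonTK+/+ glands at 7 weeks. It lay between -1.59 and -0.80 on 5 of the 8 low arrays and between -0.10 and 0.20 on the other 3. Cox7a1, also a muscle gene, ranged from -2.96 to 0.58 and Ucp1 from -4.12 to 1.04. Fabp3 of this list is also among the further genes of muscle metabolism. Means of 13 smooth muscle and myoepithelial genes ranged from -0.71 to 0.59, where Synm, a partner of desmin, had the largest range, 3.77, then Cnn1, Krt14 and Krt5 with 2.26, 1.77 and 1.75. Means over 8 luminal epithelial genes ranged from -0.79 to 0.51, over 9 fibroblast genes from -0.31 to 0.28, over 8 white adipocyte genes from -0.63 to 0.36, over 8 endothelial genes from -0.31 to 0.40 and over 7 tendon genes from -0.64 to 0.33. The tendon mean lay between -0.64 and -0.28 on the 8 low arrays and between -0.12 and 0.33 on the other 10. In the 6 RonTK-/- arrays alone, 4 of 9 brown adipocyte and 4 of 13 smooth muscle and myoepithelial genes were higher at 7 than at 6 weeks. So were 3 of 8 luminal, 3 of 7 tendon, 1 of 8 endothelial and 1 of 11 heart genes, where 8.88% of all genes were. Among tendon genes 1 was lower, where 7.66% of all genes were. Of 8 white adipocyte and 9 fibroblast genes 0 were called. The 4 brown adipocyte genes were Ppargc1a, Cox8b, Cox7a1 and Fabp3, and Ucp1 was not called. The part of these in the muscle differences was not tested.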

How the data were processed

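The values were linear ratios per probe set that the authors deposited in 1 table for 18 arrays of 45101 probe sets. No source used here gives how array intensities were summarised and normalised. Probe sets were named through GEO's platform annotation of the array: 34945 had 1 symbol, 932 several and 9160 none, and 64 control probe sets were left out. The log2 ratios of a gene's probe sets were averaged. All 18193 genes were fitted with limma 3.58.1 in R 4.3.3, 1 mean per genotype and age, with 12 residual degrees of freedom and moderated variances, two-sided, and Benjamini-Hochberg adjustment over all genes at 0.05. The fit was tested on simulated data with independent noise for each gene. Those data hold no division of arrays shared by many genes, so they do not check the fit for that case. Genes, lists and comparisons were chosen with earlier results of these data known.

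Groups follow the sample titles. Genes named with values were set by rule: Acta1, Ckm, Myh4, Myh7, Tnni1, Tnni2, Tnnc1, Tnnc2 and Des, the 4 largest and 4 smallest ranges, the 4 smallest p per comparison, and up to 4 genes of largest range from each other list. Replicate numbers were not treated as pairs: same-numbered arrays of the genotypes correlated between -0.82 and 0.63, above 0.1 in 5 of 9 pairs. For arrays 1, 2 and 3 the values were 0.63, -0.82 and -0.76 at 5 weeks and 0.43, 0.24 and 0.32 at 6 weeks. At 7 weeks they were 0.26, -0.01 and -0.20. Such mixed values do not settle whether the numbers pair samples. Alternatives were another summary per gene, quantile normalization, a pseudocount of 0.1, lowest ratios as missing, array weights, a replicate block, only the groups compared, and each array left out. The number of arrays limits the precision.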

Additional observations from a re-analysis of the deposited data

How the results depend on the processing

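No muscle gene was called in any comparison when any 1 of the 18 arrays was left out (range 0 to 0 genes called), with the replicate number as a block (0 genes called), under quantile normalization, with a pseudocount or with the lowest ratios missing. Array weights, fitted gene by gene because the usual fit did not converge, gave 38 called for 6 minus 5 weeks and 38 for 7 minus 6 weeks in RonTK-/- glands, and 0 in RonTK+/+ glands, where 19 and 20 had an unadjusted p under 0.05, against 0 and 0 without weights. Fitting only the groups compared gave 38 for 7 minus 6 weeks, where fewer arrays set the spread, and no separate value for genotype over the 3 ages or the interaction, which use all groups. The span of slow minus fast was at least 3.88, and 2.27 with log2(ratio + 0.1). Counts at the lowest ratio were 81, then 157 at 0.02 and 303 at 0.05. The 25 muscle genes among the 50 most variable became 5 after quantile normalization and 9 with log2(ratio + 0.1). The cause of the last changes was not tested.

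With 1 array left out, the median muscle difference ran from -0.55 to 0.66 over the 3 ages, from -1.33 to 2.32 at 5 weeks, from -2.83 to -0.16 at 6 weeks and from -0.17 to 2.51 at 7 weeks, from -5.16 to -2.31 and from 4.34 to 4.87 for the RonTK-/- age comparisons, and from -2.90 to 0.07 and from 0.17 to 3.05 for the RonTK+/+ ones. Uncalled differences that changed sign were Myh1 (-0.17 to 0.90), Myl1 (-0.30 to 0.60), Actn2 (-0.38 to 0.99) and Tcap (-0.39 to 0.76) over the 3 ages, Myl1 (-0.07 to 2.27), Tnnc2 (-0.03 to 3.36), Cacna1s (-0.07 to 2.43) and Eno3 (-0.08 to 2.52) at 7 weeks, below 0 without RonTK+/+ array 2, and Tnnc1 (-0.11 to 1.63) for 6 minus 5 weeks in RonTK+/+ glands, below 0 without array 1 at 6 weeks. With the lowest ratios missing, Myh1 was at -0.13 over the 3 ages and at 0.17 for 6 minus 5 weeks in RonTK+/+ glands.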
